A study of Callithrix jacchus with 71 samples.

Results

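The HOX genes of the A, B, C and D clusters were described in single marmoset cells. Members were the genes of the deposited table whose symbol is HOX, a cluster letter from A to D and a paralog number, which gave 31 of 23561 named genes: 11 of HOXA, 9 of HOXB, 6 of HOXC and 5 of HOXD. The remaining 8 genes of the mammalian clusters have no row in the table and were not analysed. All of them are high-numbered genes of HOXB, HOXC and HOXD, past the last gene listed in each cluster. The table holds 65 induced neural stem cell-like cells (iNSLCs) of clone E01F A-2 at passage 1. Beside them are 4 ESCs of clone no. 40, a single iPSC of clone E01F A-2-2 and a single E01F fibroblast. E01F fibroblasts came from the dorsal skin of an embryonic marmoset. The iNSLC clone E01F A-2 was made from them with the episomal EP-A vectors, which carry EGFP, a dominant-negative mouse Trp53 and the human reprogramming factors LIN28, L-MYC, KLF4, SOX2 and OCT4, in NSM, a medium used to bring stem cells toward a naive state. The study found these vectors to remain in iNSLC clones. It also found every vector in the passage 1 iNSLCs that gave rise to its representative iPSC clones, E01F A-2-2 among them. Whether each single iNSLC carried them was not tested. E01F A-2-2 is a transgene-free iPSC clone of the same animal, and no. 40 is an ESC clone. Each group is thus 1 line and was taken as 1 culture, and the fibroblast and the iPSC are 1 cell each, so no test was made between groups. The 4 ESCs and the iPSC are called PSC cells.

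HOX genes encode homeodomain transcription factors that give cells their position along the head-to-tail axis. They lie in clusters, in which genes with low paralog numbers sit at the 3′ end and are active toward the hindbrain, and genes with higher numbers are active progressively toward the tail. The forebrain and midbrain are formed without them, whereas the hindbrain, the spinal cord and the skin fibroblasts of the trunk and limbs keep a HOX pattern that records where they arose.

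RamDA-seq copies the total RNA of single sorted cells along the transcripts. Levels are given in the normalized counts of the authors, where a single read was worth 0.441 to 2.84 in iNSLCs and 0.405 to 2.55 in ESCs. The iNSLCs had 82268 to 695241 reads on named genes, the PSC cells 134328 to 1003718 and the fibroblast 1294430. The cell type labels were checked against marker genes. Neural stem cell markers were at 1171 to 8406 normalized counts in sum over 7 genes in iNSLCs, against 172 to 233 in ESCs and 122 in the iPSC. The sum was 7266 in the fibroblast. VIM gave most of it in the fibroblast (7161) and in iNSLCs (mean 2771 of 3383). Singly, 5 of the 7 were at least 4-fold higher in iNSLCs than in PSC cells, where 3.18% of all genes were: SOX1, PAX6, MSI1, VIM and CDH2. SOX2 and NES had log2 ratios of 1.97 and 0.94. That of MSI1, 2.12, was 1.81 without ESC 10. All 7 pluripotent markers were at least 4-fold lower in iNSLCs than in PSC cells, and 3 of them (TDGF1, UTF1 and CDH1) had no iNSLC read. How many of all genes were at least 4-fold lower in iNSLCs was not counted, here or for the gene sets below. Of 13 fibroblast markers, 12 were at least 4-fold higher in the fibroblast than in iNSLCs, where 6.38% of all genes were. In iNSLCs 2 of the 13, PRRX1 and POSTN, had no read, and DCN, LUM and TWIST2 had reads in 1 cell each. The summed level in iNSLCs was 0 to 1152, mostly from COL1A2 and FBN1, against 27495 in the fibroblast and 77.2 to 391 in ESCs. Against PSC cells, 2 of the 13 were at least 4-fold higher in iNSLCs, where 3.18% of all genes were. They were COL1A2 (104 against 0.704) and FBN1 (56.0 against 6.71), while COL1A1 was at least 4-fold lower (1.52 against 134). The 4 mesoderm markers summed to 0 to 14.4 in iNSLCs and 17.8 to 158 in ESCs.

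Every iNSLC had reads of HOX genes. An iNSLC had reads of 3 to 22 of the 31 genes, with a median of 9 and a mean of 10.7 ± 4.22 (SD, n = 65 cells). All 4 clusters were read in 49 iNSLCs and 3 clusters in 15, and cell 78, the cell with the fewest, had HOXA2, HOXB3 and HOXC4 alone. The summed HOX level was 21.1 to 436 normalized counts with a median of 94.2. The ESCs had reads of 2, 0, 0 and 3 HOX genes (cells 10, 11, 12 and 14), the iPSC of 3 and the fibroblast of 20. The summed level was 3.24, 0, 0 and 16.7 normalized counts in these ESCs, 6.41 in the iPSC and 104 in the fibroblast. Thus no PSC cell reached the lowest iNSLC in the sum, and the fibroblast lay near the iNSLC median.

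**Figure D1:**
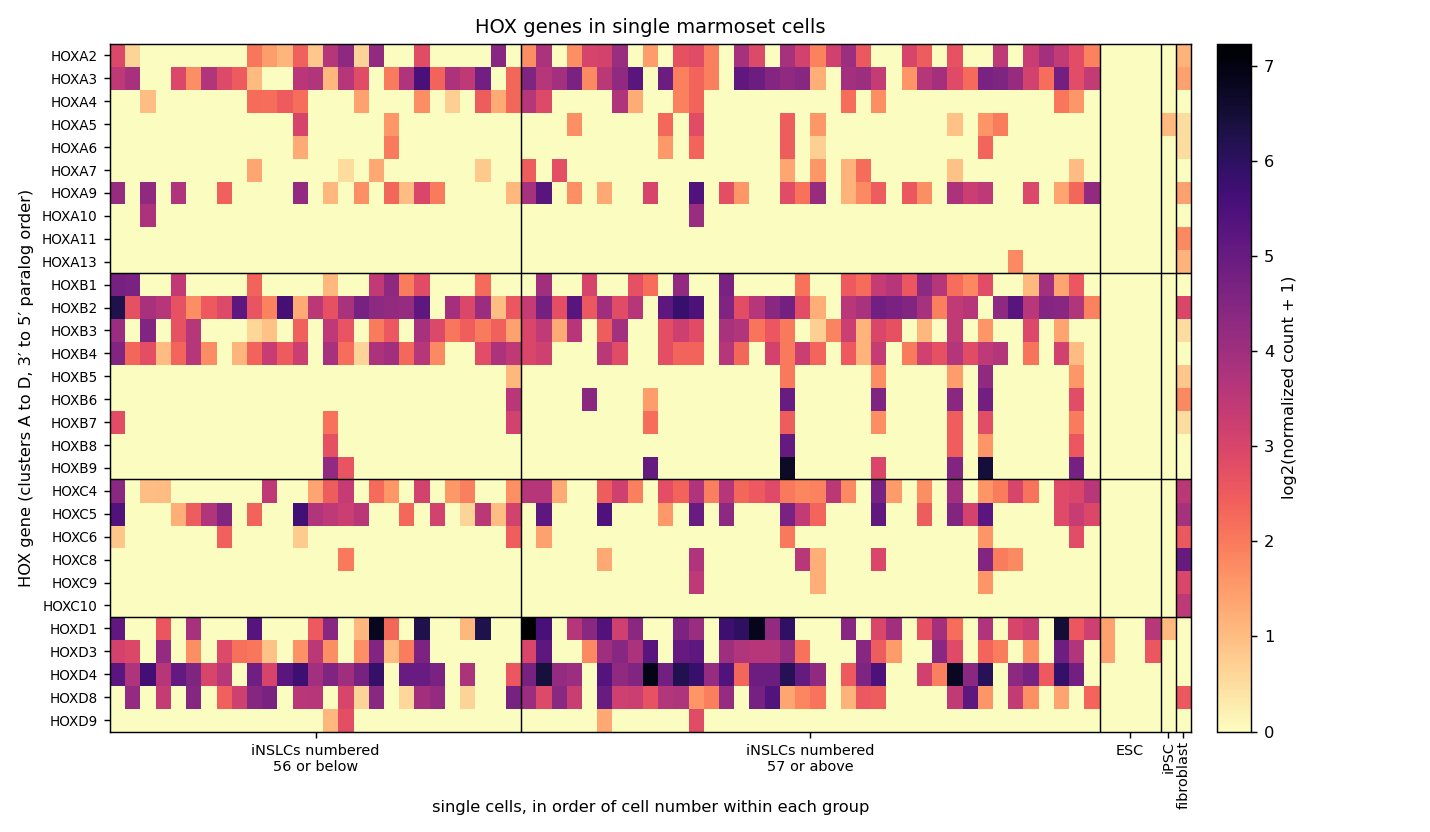
Log2 of normalized counts plus 1 (colour) for 30 HOX genes (y axis) in 65 iNSLCs, 4 ESCs, 1 iPSC and 1 fibroblast (x axis, 1 column per cell in order of cell number). Lines part the clusters and groups. The 5 PSC columns are nearly empty, HOXB5 to HOXB9 are filled in few iNSLCs, and the fibroblast fills the HOXC block.

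The spread between iNSLCs had a weak relation to depth. Over the 65 iNSLCs, which share 1 culture, the number of HOX genes with a read had a Spearman rho of 0.13 (Pearson r 0.06) with the cell's total reads. The median was also 9 over the 58 iNSLCs that could be thinned to 129629 reads each. Thinned to that depth, the ESCs had 0, 0, 0 and 2 HOX genes, the iPSC 1 and the fibroblast 13. The sum of the fibroblast markers had a rho of 0.22 with the number of HOX genes and 0.14 with the summed HOX level. For the neural stem cell markers these rhos were 0.16 and 0.26, and for the pluripotent markers 0.01 and -0.01.

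**Figure D2:**
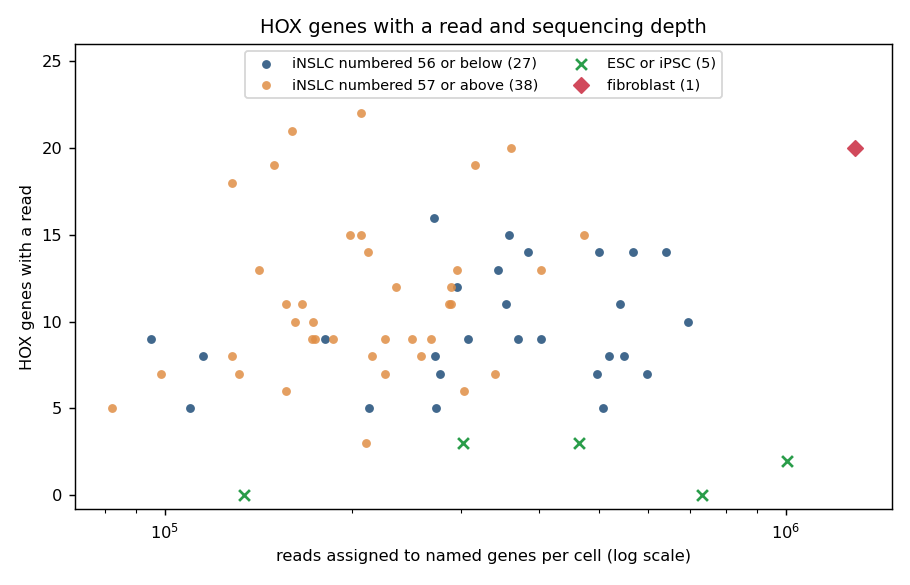
Number of HOX genes with a read (y axis) against reads on named genes per cell (x axis, log scale), with 1 point per cell. The iNSLCs lie between 3 and 22 genes at every depth, and the PSC cells at 0 to 3.

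Among the genes with a row, the iNSLC pattern was broad at the 3′ end of the clusters and thin at the 5′ end. The last genes at the 5′ ends of HOXB, HOXC and HOXD have no row and could not be described. Of the 31 genes, 29 had a read in at least 1 iNSLC, 12 in at least 33 cells, 5 in 10 to 32 and 12 in 1 to 9. The 12 most often read were HOXA2, HOXA3, HOXA9, HOXB2, HOXB3, HOXB4, HOXC4, HOXC5, HOXD1, HOXD3, HOXD4 and HOXD8. Exact 95% Clopper-Pearson intervals (CI) are given for shares of cells with a read, and they cover counting error only.

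Paralogs 1 and 2 act at the front of the HOX domain, in the hindbrain. HOXB2, a hindbrain gene that acts downstream of HOXB1, was the most widely read HOX gene. It was found in 60 iNSLCs, or 92.3% (CI 83.0% to 97.5%), at a lowest value of 0, a median of 11.2 and a highest value of 75.7 normalized counts. HOXA2, which patterns the hindbrain and the second pharyngeal arch, was found in 40 iNSLCs (61.5%, CI 48.6% to 73.3%), at a median of 2.30 and up to 20.3. HOXB1, which gives identity to the hindbrain segment that makes the facial nerve, was found in 31 iNSLCs (47.7%, CI 35.1% to 60.5%), at a median of 0 and up to 25.8. HOXB1 was therefore read in fewer iNSLCs than HOXB2, its neighbour.

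HOXD1 was the most uneven of this group. It was found in 38 iNSLCs (58.5%, CI 45.6% to 70.6%), at a mean of 18.8 ± 31.8 (SD over 65 cells), a median of 4.96 and a highest value of 149 normalized counts in cell 57. In that cell it had 65 reads, while 27 iNSLCs had none. Its SD over the cells was thus larger than its mean.

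Paralog group 3 contributes to the posterior hindbrain and the neck. HOXA3, needed for the thymus and the parathyroid, was found in 55 iNSLCs (84.6%, CI 73.5% to 92.4%), at a median of 9.44 and up to 45.9 normalized counts. HOXB3 was found in 43 (66.2%, CI 53.4% to 77.4%), at a median of 2.97 and up to 22.2. HOXD3, which shapes the first neck vertebrae, was found in 41 (63.1%, CI 50.2% to 74.7%), at a median of 2.42 and up to 37.6. At least 1 of the 3 genes was read in 64 of the 65 iNSLCs.

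Paralog group 4 marks the posterior hindbrain and the upper cervical cord. HOXD4 was found in 54 iNSLCs (83.1%, CI 71.7% to 91.2%), at a median of 22.3 and up to 118 normalized counts, the latter in cell 65. HOXB4, also known for its action in blood stem cells, was found in 49 (75.4%, CI 63.1% to 85.2%), at a median of 4.08 and up to 21.6. HOXC4 was found in 43 (66.2%, CI as for HOXB3), at a median of 2.38 and up to 25.1. HOXA4 stood below its paralogs in share, at 21 iNSLCs (32.3%, CI 21.2% to 45.1%), with a median of 0 and up to 12.2.

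Paralogs 5 to 8 pattern the neck and trunk, and in them the clusters parted. HOXD8 was found in 45 iNSLCs (69.2%, CI 56.6% to 80.1%), at a median of 4.05 and up to 40.1 normalized counts. HOXC5 was found in 33 (50.8%, CI 38.1% to 63.4%), at a median of 0.557 and up to 49.6. Both lie beside a widely read neighbour of paralog group 4. The other genes of this group were read in few cells. HOXA7 was found in 12 iNSLCs and up to 5.72, HOXA5, which acts in the lung and in motor neurons of the neck, in 10 and up to 7.19, and HOXA6 in 7 and up to 4.59. HOXC8, a gene of the lower neck and upper trunk, was found in 9 and up to 22.3, and HOXC6, a marker of forelimb-level motor neurons, in 8 and up to 5.95. HOXB5, HOXB6, HOXB7 and HOXB8 were found in 6, 8, 9 and 5 iNSLCs.

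Paralogs 9 to 13 belong to the trunk and tail. HOXA9, which also acts in blood cells, departed from its neighbours. It was found in 35 iNSLCs (53.8%, CI 41.0% to 66.3%), at a median of 1.13 and up to 40.8 normalized counts, although HOXA5, HOXA6 and HOXA7 beside it on the 3′ side were found in 7 to 12 cells. HOXB9, a gene of the thoracic level, was found in 8 iNSLCs, HOXD9 in 4, HOXC9 in 3, HOXA10 in 2 and HOXA13 in 1. HOXA11 and HOXC10 were found in 0 of 65 iNSLCs, which allows a share of up to 4.62% by the limit of 3 of 65 cells and up to 5.52% by the exact interval. HOXA10 was at 12.6 in cell 27 and 16.3 in cell 68, the latter from 8 reads. Cell 68 also had the highest HOXA9, HOXC9 (10.2) and HOXD9 (6.12) of all iNSLCs, with HOXC8 at 12.2, and had no read of HOXB5 to HOXB9. The cell was singled out after its values were seen.

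The iNSLCs were set against PSC cells to ask which HOX genes are higher in the intermediate. In PSC cells 4 of the 31 HOX genes had any read. Among them, HOXA5 was at 1.07 in the iPSC, HOXD1 at 1.62 in ESC 10, 10.8 in ESC 14 and 1.07 in the iPSC, and HOXD3 at 1.62 in ESC 10 and 4.998 in ESC 14. ESC 11, the shallowest, and ESC 12, the second deepest, had none. The PSC reads were therefore in paralogs 1, 3 and 5, with 28 of the 34 reads in HOXD1 and HOXD3.

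On the scale of log2(mean + 1), 28 of the 31 HOX genes were higher in iNSLCs, where 10791 of all 23561 genes were. For a gene without a PSC read a single iNSLC read was enough, as for HOXA13 at a log2 ratio of 0.05. The median log2 ratio was 1.16 for HOX genes, against -0.10 over all named genes. At least 4-fold higher were 13 HOX genes, or 41.9%, where 3.18% of all 23561 genes passed the same limit, and none was at least 4-fold lower. They were HOXA2, HOXA3, HOXA9, HOXB1, HOXB2, HOXB3, HOXB4, HOXB9, HOXC4, HOXC5, HOXD1, HOXD4 and HOXD8. Without a pseudocount the limit was passed by these and by HOXD3, and with any single iNSLC left out the log2 ratios of the 13 genes stayed at 2.03 or above. Of the 31 genes, 25 had reads in iNSLCs and none in PSC cells, where 16.1% of all genes did. Of these, 10 were read in at least 33 iNSLCs, where 0.569% of all genes were.

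Where PSC cells had no read, a floor of 3 reads of average worth over the 5 cells (0.648 normalized counts in the mean) was used. The fold is a minimum at that floor only. Reads in ESC 11, worth 2.55 each, would give a higher floor and a lower fold. The mean of HOXD4 was at least 40.1-fold higher in iNSLCs, that of HOXB2 at least 23.8-fold and that of HOXA3 at least 16.9-fold. HOXD8 was at least 12.1-fold, HOXC5 at least 11.9-fold and HOXB4 at least 7.99-fold higher. For HOXD1 the 18 PSC reads gave a 6.95-fold difference in means, and for HOXD3 the 10 reads gave 5.62-fold. The highest PSC cell, ESC 14, lay within the iNSLC range for both, as HOXD1 and HOXD3 also had iNSLCs without a read. With ESC 14 left out, the log2 ratio of HOXD1 was 3.57 in place of 2.42 and that of HOXD3 was 2.59 in place of 1.86.

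**Figure D3:**
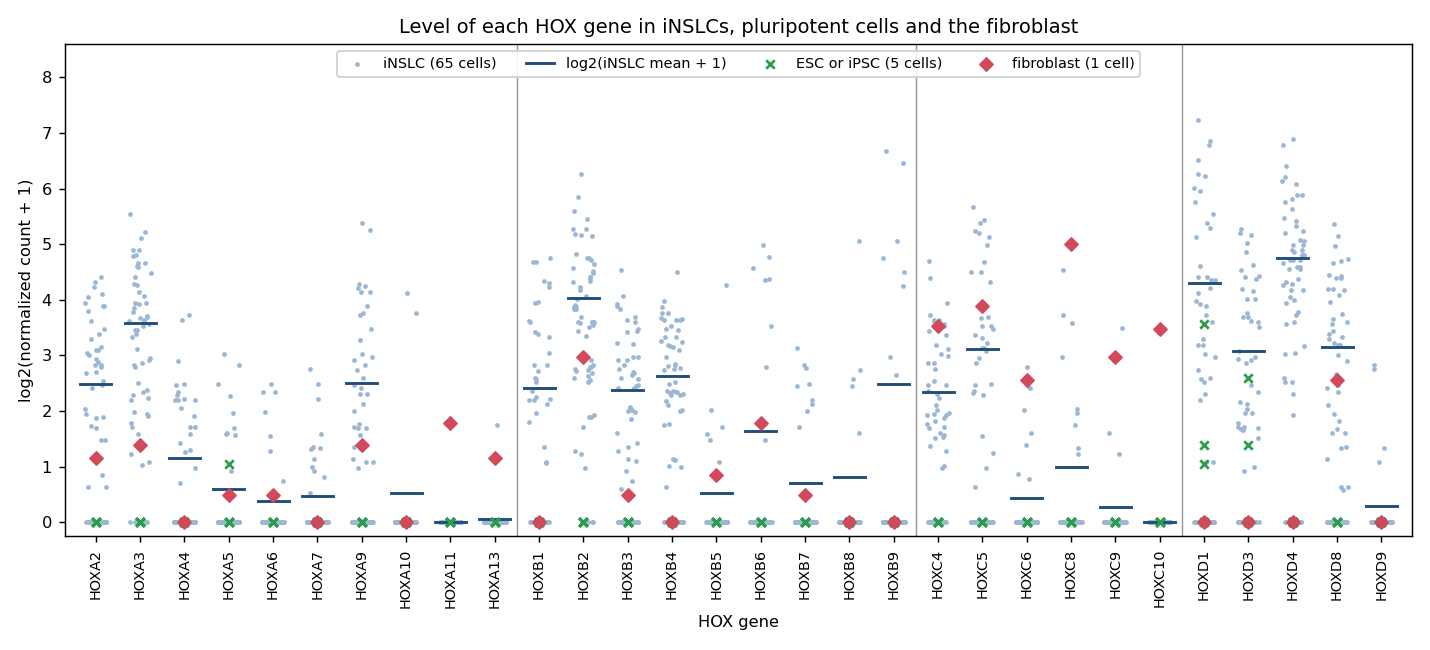
Each of 30 HOX genes (x axis) is drawn at its log2 level, normalized counts plus 1 (y axis), with 1 point per iNSLC, a bar at the log2 of the iNSLC mean plus 1, crosses for the 5 PSC cells and a diamond for the fibroblast. The diamond lies above the bar for all 6 HOXC genes and below it for HOXB1, HOXB4, HOXD1, HOXD3 and HOXD4.

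The fibroblast shows the HOX pattern of 1 cell of the line from which the iNSLCs were made. Its pattern was weighted to HOXC and to higher paralog numbers. HOXC8 was at 31.2 normalized counts (77 reads), above the highest iNSLC at 22.3. HOXC10, a gene of the lower trunk and hindlimb level, was at 10.1 (25 reads) and had no iNSLC read. HOXC9 was at 6.88 and HOXC6 at 4.86, and in each 1 iNSLC lay as high. HOXC5 was at 13.8, reached by 11 iNSLCs, and HOXC4 at 10.5, reached by 9. HOXA11, which acts in limb and uterus, was at 2.43, and HOXA13, which acts in hand, foot and hindgut, at 1.21 (3 reads).

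At least 4-fold higher in the fibroblast than in the iNSLC mean were 4 of 31 HOX genes, where 6.38% of all genes were. They were HOXC6, HOXC8, HOXC9 and HOXC10, with log2 ratios of 2.11, 4.02, 2.70 and 3.47. HOXC10 was at least 164-fold higher against a floor of 3 reads over the iNSLCs. At least 4-fold lower were 7 HOX genes, where 6.43% of all genes were. They were HOXA3, HOXB1, HOXB4, HOXB9, HOXD1, HOXD3 and HOXD4. The fibroblast had no read of 6 of them, and HOXA3 was at 1.62. HOXD4 was at least 21.4-fold lower against a floor of 3 reads in the fibroblast and HOXD1 at least 15.5-fold, with log2 ratios of -4.75 and -4.31. HOXD1, HOXD3, HOXD4 and HOXD9 had no fibroblast read, and HOXD8, at 4.86, was the 1 HOXD gene with reads. The log2 ratios went both ways, 12 higher and 19 lower in the fibroblast. Over all 23561 genes 8778 were higher and 13827 lower, a similar split. The median was -0.47 for HOX genes and -0.10 over all genes.

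The remaining genes were 4-fold apart in neither direction. In the fibroblast HOXB2 was at 6.88, HOXB6 at 2.43, HOXA9 at 1.62, HOXA2 at 1.21 and HOXB5 at 0.809. HOXA5, HOXA6, HOXB3 and HOXB7 had 1 read each. HOXA4, HOXA7, HOXA10, HOXB8 and HOXD9 had none.

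Composition can be compared between cells without a length for each gene, and it covers only the HOX genes with a row. HOXC genes held 74.0% of the fibroblast's 258 HOX reads (CI 68.2% to 79.3%). In single iNSLCs they held 0% to 50.0%, with a median of 5.97%, so that no iNSLC reached the fibroblast's share. HOXD genes held 4.65% in the fibroblast (CI 2.43% to 7.98%) and a median of 38.3% in iNSLCs, and 60 of the 65 iNSLCs lay at or above the fibroblast. By paralog number, genes 1 and 2 held 10.1% of HOX reads in the fibroblast (CI 6.69% to 14.4%) and a median of 30.2% in iNSLCs, of which 54 lay at or above it. Paralog group 3 held 1.94% in the fibroblast (CI 0.632% to 4.46%) and a median of 15.6% in iNSLCs. Paralogs 4 to 8 held 66.7% in the fibroblast (CI 60.6% to 72.4%) and a median of 42.7% in iNSLCs. Paralogs 9 to 13 held 21.3% in the fibroblast (CI 16.5% to 26.8%) and a median of 1.28% in iNSLCs, and 6 iNSLCs reached the fibroblast's share. Summed over all iNSLCs, the 7687 HOX reads were 44.0% HOXD, 27.8% HOXB, 18.5% HOXA and 9.74% HOXC.

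**Figure D4:**
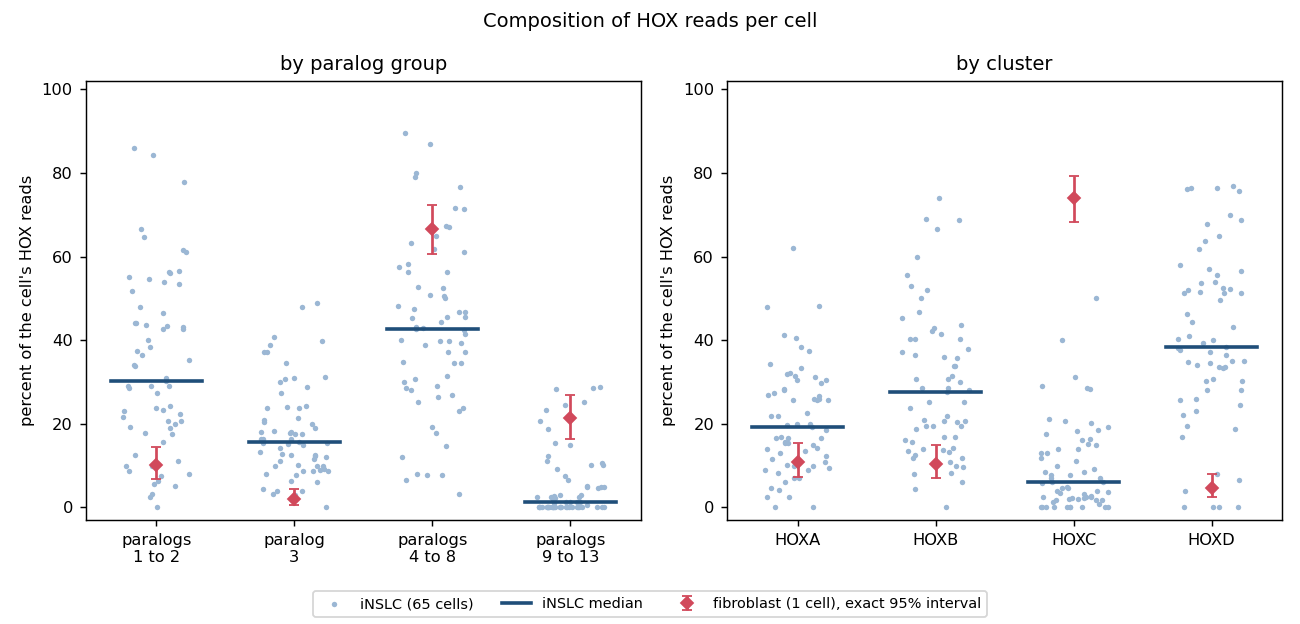
Percent of a cell's HOX reads (y axis) by paralog group (left) and by cluster (right), with 1 point per iNSLC, a bar at the iNSLC median and a diamond for the fibroblast with its exact 95% interval. The fibroblast lies above all iNSLCs for HOXC, and below the iNSLC medians for HOXD and for paralogs 1 to 3.

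Neighbouring HOX genes share regulatory domains, and single cells show whether they are read together. Co-detection was measured by phi, the correlation of presence and absence of a read over the 65 iNSLCs, for the 25 HOX genes with a read in 5 to 60 of them. The 300 pairs share the same cells and are not independent. The median phi was 0.16 over 21 pairs of neighbours, 0.12 over 55 other pairs of the same cluster and 0.12 over 224 pairs of different clusters. Pairs of equal paralog number in different clusters had a median of 0.16 over 24 pairs. Neighbours as a whole thus had a median close to that of unlinked genes, while the spread among neighbours was wide, from -0.11 to 0.85.

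A phi of at least 0.5 was found in 5 of the 21 neighbour pairs, where 0.711% of 4784 pairs of adjacent genes of the RefSeq annotation that are not both HOX passed it. It was also found in 6 of 55 other pairs of a cluster and in 2 of 224 pairs of different clusters. The 5 neighbour pairs were HOXA5 with HOXA6, and HOXB5 with HOXB6, HOXB6 with HOXB7, HOXB7 with HOXB8 and HOXB8 with HOXB9. All 7 iNSLCs with a HOXA6 read also had HOXA5, where the product of the shares gives 1.08 cells, a phi of 0.81. HOXD4 and HOXD8 were read together in 43 iNSLCs, where the product gives 37.4, a phi of 0.50 when rounded and just under the limit. HOXD1 and HOXD3 were together in 31 cells against 23.97 by the product, a phi of 0.45. All 8 iNSLCs with HOXC6 had HOXC5, against 4.06 by the product.

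Other neighbours gave counts close to the product. HOXA2 and HOXA3 were together in 34 iNSLCs against 33.8, HOXB1 and HOXB2 in 29 against 28.6, and HOXC4 and HOXC5 in 21 against 21.8. The phi of HOXA4 with HOXA5 was -0.11, the lowest among neighbours. Gene models overlap in 9 pairs of these HOX genes in RefSeq (assembly calJac240_pri, which may not be the annotation used by the authors). Among them were HOXB3 with HOXB4, HOXD3 with HOXD4, and HOXC4 with each of HOXC5, HOXC6, HOXC8 and HOXC9. Over the 16 neighbour pairs without overlap the median phi was 0.28, and they included all 5 pairs above 0.5.

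HOXB split into a widely read 3′ part and a 5′ part that was read in few cells. HOXB5 to HOXB9 had reads in 11 of the 65 iNSLCs (16.9%), which were cells 25, 40, 41, 56, 61, 65, 75, 81, 86, 88 and 95. Within HOXB5 to HOXB9 all 10 pairs had a phi of 0.59 to 0.85, with a median of 0.75. Within HOXB1 to HOXB4 the median over 6 pairs was 0.12, and between both parts it was 0.10 over 20 pairs. These genes were grouped after the pattern was seen.

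**Figure D5:**
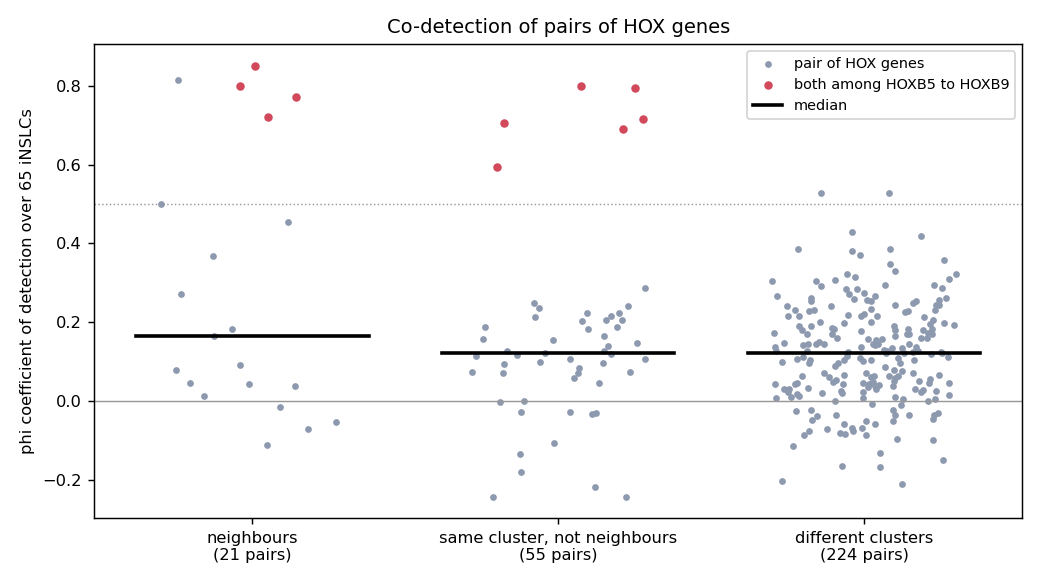
Phi of detection over 65 iNSLCs (y axis) for pairs of HOX genes that are neighbours, of the same cluster but not neighbours, or of different clusters (x axis), with 1 point per pair and a bar at the median. Pairs within HOXB5 to HOXB9 (red) lie at 0.59 to 0.85, and the medians of the 3 classes lie between 0.12 and 0.16.

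All 5 genes of the 5′ part were read in cells 75, 86, 88 and 95, and 4 of them in cell 81. Cells 40, 56 and 65 had 3 and cells 25, 41 and 61 had 1. In normalized counts, HOXB9 stood at 101 in cell 75, at 87.2 in cell 88, 32.2 in cell 65, 25.8 in cell 95, 21.5 in cell 86, 18.0 in cell 40, 6.84 in cell 81 and 5.29 in cell 41. HOXB6 was at 30.6 in cell 75, 26.3 in cell 88, 22.8 in cell 81, 19.7 in cell 86, 19.4 in cell 61, 10.6 in cell 56, 5.95 in cell 95 and 1.79 in cell 65. HOXB8 was at 32.2 in cell 75 and at 2.03 to 5.64 in the other 4 cells that had it, HOXB5 was at 18.2 in cell 88 and at 1.11 to 3.06 in the other 5, and HOXB7 stayed at 2.28 to 7.78. Levels were therefore highest in cells 75 and 88, where the 5 genes summed to 172 and 140.

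These 11 cells had 128113 to 642253 reads, within the range of the other iNSLCs, and their fibroblast markers summed to 45.6 to 331 normalized counts. In cells 75, 86 and 88 the number of HOX genes was also the highest of all, at 22, 20 and 21. Without these 3 cells, a setting added after the data were seen, 2 neighbour pairs had a phi of at least 0.5 and the median phi of neighbours was 0.05, against 0.07 for different clusters. Wells with more than 1 cell were not assessed. With cells thinned to equal reads, 10 of 58 iNSLCs had reads of HOXB5 to HOXB9.

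Reads of a whole cluster were absent in few iNSLCs. No HOXA read was found in 2 iNSLCs (cells 28 and 82), no HOXB read in 1 (cell 69), no HOXD read in 4 (cells 50, 55, 78 and 83) and no HOXC read in 10. The summed levels of the 4 clusters had Spearman rhos of 0.17 (HOXB with HOXC) to 0.40 (HOXA with HOXD) with each other over the 65 iNSLCs, which share the scaling of each cell.

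The iNSLCs numbered 56 or below (27 cells) and 57 or above (38 cells) differ in depth and profile, a division made by an earlier analysis after the profiles were seen. What the numbers stand for is not given in the labels. The first set had a median of 357910 reads and the second 208746. The median number of HOX genes was 9 in the first and 10.5 in the second, less than the SD within each (3.31 and 4.69), and 8 and 10 after thinning. The median summed level was 82.9 and 118. Of the 29 genes read in iNSLCs, 20 had a larger share of cells with a read in the second set and 9 in the first. HOXC4 was found in 48.1% and 78.9%, HOXA2 in 48.1% and 71.1% and HOXD1 in 44.4% and 68.4%. HOXC5 went the other way, at 63.0% and 42.1%, as did HOXB4, at 85.2% and 68.4%. HOXB5 to HOXB9 were found in 14.8% and 18.4%, at a mean sum of 2.13 ± 6.36 and 13.1 ± 36.7 (SD over cells), and the 5 cells with 4 or 5 of these genes (75, 81, 86, 88 and 95) were all in the second set. Phi over neighbours had a median of 0.11 in the first set (7 pairs) and 0.31 in the second (13 pairs), with other gene sets passing the limit of 5 cells in each.

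HOX proteins bind DNA with partners of the PBX and MEIS families. Of 10 cofactor genes in the table, 4 were at least 4-fold higher in iNSLCs than in PSC cells, where 3.18% of all genes were, and none was lower. The list had a median log2 ratio of 1.17, against -0.10 over all genes. MEIS1 was read in all 65 iNSLCs, at a mean of 79.0 ± 54.0 (SD), and had no read in PSC cells or in the fibroblast, a fold of at least 122 over PSC cells. MEIS2 had a mean of 24.6, against 0.833 in PSC cells, with 19.0 in the fibroblast. MEIS3, at 69.9 against 16.6, lay just past the limit with a log2 ratio of 2.01, which was 1.98 without iNSLC 79 and 1.70 without ESC 10. PKNOX2, of the same superfamily, was the remaining one, at 14.1 against 1.71. The nucleosome-binding HMGN1 was at 74.2 and 32.6, and the coactivator CREBBP at 63.3 and 106, both within 4-fold.

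Retinoic acid, Wnt and FGF signals set HOX genes in motion in the embryo, and Trithorax and Polycomb proteins keep their state. Of 40 such regulators in the table, 5 were at least 4-fold higher in iNSLCs, where 3.18% of all genes were, and 2 lower. The median log2 ratio was -0.22, against -0.10 over all genes. Among the higher were the retinoid-binding protein genes CRABP1 and CRABP2, the Wnt ligand WNT3A and the Polycomb gene BMI1. CRABP2 was at 46.6 in iNSLCs, 1.28 in PSC cells and 41.3 in the fibroblast. CRABP1 had a mean of 171 but a median of 4.77, with 3028 in 1 cell, and 5.90 in PSC cells. WNT3A, at a mean of 6.81, was found in 13 iNSLCs and at 213 in cell 75. Without that cell its mean was 3.59 and its log2 ratio 1.92 in place of 2.69, under the limit. BMI1 was at 10.5 and 0.828. Lower were the retinol receptor STRA6, at 3.58 against 24.9, and TBXT, at 0.214 against 42.6. The Trithorax gene KMT2A (66.5 and 112), the histone demethylase KDM6B (95.6 and 55.7) and the acetyltransferase KAT6A (45.9 and 24.3) were within 4-fold between iNSLCs and PSC cells.

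Genes that mark the head in front of the HOX domain were described alongside. Of 15 head and axis genes in the table, 5 were at least 4-fold higher in iNSLCs than in PSC cells, where 3.18% of all genes were, and none lower, with a median of 0.15. They were GBX2, a gene of the anterior hindbrain, at 8.77 against 0.608, and the neural patterning genes IRX1, IRX2, IRX3 and IRX5, at 30.7, 34.6, 35.3 and 26.5. IRX1, IRX3 and IRX5 had no PSC read, and against the floor IRX1 was higher at least 47.3-fold, IRX3 at least 54.6-fold and IRX5 at least 40.9-fold. The fibroblast also had IRX1, at 30.3, and IRX2 was at 0.729 in PSC cells. GBX1 was at 2.37 and 3.55. The forebrain and midbrain genes OTX2 and EMX2, named after their values were seen, had no read in iNSLCs, with the same limits as for HOXA11 and HOXC10. Other head genes of the list were read in few iNSLCs: EN1 in 6 (up to 16.4), PAX5 in 4 (up to 16.3), EMX1 in 2 (up to 21.7), HESX1 in 2 and LHX2, SIX6 and PAX8 in 1 each. Genes that flank the clusters served as a contrast: of 23, 1 was at least 4-fold higher in iNSLCs, a share near the 3.18% of all genes, and 1 lower, with a median of 0.33. The higher one was LNPK, beside HOXD, at 12.1 against 0.970, and the lower one was COPZ2, beside HOXB, at 0.596 against 11.2, with a log2 ratio of -2.93 that was -1.57 without ESC 11. Of the others, HNRNPA1, CBX5, HNRNPA3, NFE2L1, CBX3 and CBX1, had log2 ratios of -0.70 to 1.09.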

How the data were processed

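RamDA-seq libraries of 71 single cells were deposited as 1 table of signal, normalized counts made by the authors. The tools in the submitters' processing notes are featureCounts 1.5.1, STAR 2.6.0c, Seurat 3.0.0 and Trimmomatic. For genome build, annotation, strand, introns and reads that fit several genes, the treatment is not given in the sources used. Reads of a HOX gene, an antisense partner and an overlapping neighbour cannot be told apart, and homeobox paralogs may share reads. Values depend on gene length, so levels were not compared between genes, except that the highest iNSLC means set which genes of the other lists were named.

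All columns were used. Values above 0 were whole multiples of the worth of 1 read in each cell, within a tolerance of 0.02 (largest deviation 0.0117). A row without a gene name, up to 0.449% of a cell, was left out. Wells holding more than 1 cell were not looked for. Ratios used means and a pseudocount of 1, and a limit of 4-fold. With 1 culture per group no model was fitted to counts. Shares have exact Clopper-Pearson and reads exact Poisson intervals at 95%. Reads carry no molecular tags, so intervals cover counting error only. Shares count cells with a read, which depends on depth.

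The members, the marker, cofactor, regulator, flanking and head gene lists, the limits and the alternatives were chosen with earlier results of these data known. Genes described singly had a read in at least 10 iNSLCs, in a PSC cell or in the fibroblast. HOXA10, HOXB8, HOXB9, HOXD9, OTX2, EMX2, LNPK, COPZ2, PKNOX2, WNT3A, BMI1, STRA6 and TBXT are outside that rule and were picked with their values in view. From each other list up to 6 genes with the highest iNSLC mean were named. RefSeq (assembly calJac240_pri) gave gene order and overlap only, and 16165 of the named genes matched a protein-coding symbol. Scripts used Python 3.11.15, pandas 2.3.3, numpy 2.4.6, scipy 1.17.1 and matplotlib 3.10.9 and were tested on simulated data. No sequences are shown, since none were among the files used here. Some genes are not reported singly here, but stay in the counts and sums.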

Additional observations from a re-analysis of the deposited data

Results flagged for a closer look

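Among the 4 ESCs, 4 HOX measures (the number of HOX genes with a read, their sum, HOXD1 and HOXD3) were examined for a cell far from the others, and 1 had one. ESC 14 was at 10.8 normalized counts of HOXD1, where the others had 1.62, 0 and 0. For a single measure, the rule would by chance flag about 1 in 20 groups, while 4 related measures were examined. Whether this rate holds for counts with zeros was not tested. What sets this cell apart was not tested.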

How the results depend on the processing

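The 13 HOX genes at least 4-fold higher in iNSLCs than in PSC cells became 5 with medians over cells (HOXA3, HOXB2, HOXB4, HOXD4 and HOXD8) and 0 with a pseudocount of 10, which is above most HOX means. They were 13 to 14 when single PSC cells were left out and 14 after scaling, which moved the median log2 ratio of all genes by 0.13 toward iNSLCs. The log2 ratio of the summed HOX level, 4.44, was 4.17 to 5.32 with each PSC cell left out, the highest without ESC 14. Of the genes 4-fold apart in the fibroblast, 4 higher became 1 when a mean of 1 or more was required, and 7 lower became 3 with medians, and both became 0 with a pseudocount of 10. After scaling (shift of all genes -0.16), 3 were higher and 8 lower. The median of 9 HOX genes in the iNSLCs numbered 56 or below became 5 when a value of at least 5 was required. The median phi of neighbours stayed within 0.05 to 0.31. The 5 of 21 neighbour pairs with a phi of at least 0.5 became 3 of 17 with at least 2 reads required and 0 of 8 with a value of at least 5. They became 0 of 7 in the iNSLCs numbered 56 or below and 0 of 10 among genes read in 10 to 55 iNSLCs (which leaves out HOXB5 to HOXB9). Without the 3 iNSLCs with 20 or more HOX genes (added after the data were seen) they were 2 of 15, and with Spearman rho of the values 8. Genes outside the limit of cells drop out in the settings with fewer pairs, so a lower count there cannot show that co-detection was lost. For the other changes the cause was not tested. Shares of cells with a read stayed within their intervals for 30 of 31 genes after thinning and for 10 with a value of at least 5. Of the cofactor, regulator, flanking and head genes 4-fold apart from PSC cells, WNT3A, MEIS3 and COPZ2 came under the limit with 1 cell left out (added after the data were seen). No paired analysis was possible because the groups share no replicate numbers. Small shares are limited by 65 cells, and the fibroblast and the iPSC have 1 cell each.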

Other observations

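Over 5813 named genes with an iNSLC mean of at least 10, the genes whose level followed the summed HOX level most closely over the 65 iNSLCs were KREMEN1, a Wnt receptor partner (Spearman rho 0.51), the zinc finger gene TSHZ1 (0.50), the cadherin gene CELSR2 (0.50), APC2, a relative of the Wnt regulator APC (0.50), and RHOBTB2 (0.49). At the other end were the nuclear import gene IPO5 (-0.51), STT3A of protein glycosylation (-0.51), the ribosomal protein gene RPS2 (-0.50), NPM1 of the nucleolus (-0.50) and the chaperone HSP90AB1 (-0.47). The 65 cells share 1 culture and the scaling of each cell, and these are the extremes of many genes. The 5 highest had rhos of 0.28 to 0.48 up to cell number 56 and of 0.44 to 0.57 from cell number 57. With total reads, the highest 5 had rhos of -0.36 to -0.07 and the lowest 5 of 0.12 to 0.40, and the part of depth in these relations was not tested.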
